A study of Rattus norvegicus with 2 samples.

Results

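The 6 genes described here are the endothelial selectin genes Sele and Selp, the endothelial ligand genes Vcam1 and Icam1 for leukocyte integrins, and the leukocyte genes Fut7, which helps to make selectin ligands, and Spn, a mucin that can carry them. They were chosen by name, as 6 of the 22154 genes listed in either of 2 libraries of single cells from the zygomatic maxillary suture of rats, where the cheek bone meets the upper jaw. In the distraction library a spring of 0.4 mm nickel-titanium wire, set to a starting force of 20 g, had pulled on the suture for 7 days. In the sham library holes were drilled and no spring was placed. All rats were 4 weeks old, and the sources used here give neither a strain nor the number of animals behind each library. Each group has 1 library, so no test between the groups was possible, no p-value is given, and every interval in parentheses is a 95% interval for counting error only.

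Circulating leukocytes leave the blood in steps. E-selectin (Sele) and P-selectin (Selp) on activated endothelium catch sugar-bearing ligands on passing leukocytes and let them roll. P-selectin is stored in endothelial cells and in platelets and their parent cell, the megakaryocyte, whereas Sele is transcribed by endothelium when inflammatory cytokines act on it. Fut7 codes for the fucosyltransferase that finishes the sialyl Lewis x sugar which selectins bind, and Spn for CD43, a long sialylated mucin of leukocytes that can carry such sugars and can also keep cells apart. Firm arrest then depends on ICAM-1 (Icam1), bound by the integrin of Itgal and Itgb2, and on VCAM-1 (Vcam1), bound by the integrin of Itga4 and Itgb1. Outside vessels, VCAM-1 is also known on marrow stroma and on macrophages of the bone marrow.

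After filtering, 4032 distraction cells (31154353 UMIs, that is counted molecules, median 4156.5 per cell) and 5182 sham cells (29478647, median 3032.5) remained, and most were of blood and marrow types. Deposited distraction cells reached down to 125 UMIs and sham cells to 920, and 22 cell indices occurred in both deposited libraries, 19 of them after filtering. Clusters were named from marker genes, with all adhesion genes of the lists left out of the clustering, and a name ending in "-like" rests on those markers alone. Neutrophils fell into 4 stages named after their leading genes: defensin genes of the early granules (274 and 181 cells), Ngp and Lcn2 of the later granules (338 and 255), Mmp8 and Mmp9 (242 and 128), and the mature stage with Ccl6 and Il1r2 (355 and 199), after granulocyte progenitor-like cells with Mpo and Elane (108 and 69). Endothelial cells were gated cell by cell as cells with a UMI of at least 4 of 19 endothelial markers and of fewer than 2 megakaryocyte markers, because Selp is also a platelet gene. The gate held 27 distraction cells (median 7965 UMIs) and 19 sham cells (median 7200), with a median of 11 and 14 endothelial markers per cell. The gate itself uses the genes Cdh5, Kdr, Flt1 and Plvap, so their levels describe the gated cells and are no check of the label. The VE-cadherin gene Cdh5 stood at 559.9 CPM (counts per 1e+06 UMIs of the class) in distraction and 823 in sham, the VEGF receptor genes Kdr at 672 and 667 and Flt1 at 722 and 907, and the fenestral diaphragm gene Plvap at 1331 and 1627. Vwf, an endothelial and megakaryocyte gene that the gate does not use, was at 390 CPM in distraction and 32.4 in sham. Of the gated cells, 23 and 17 lay in the 1 cluster named endothelial, 2 and 1 in the stromal-like cluster and 2 and 1 in a cluster led by mast-cell protease genes, and these last 3 also held the leukocyte gene Ptprc.

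Each gene had its own set of cells. Sele lay almost wholly in gated endothelial cells, with 81 of 85 distraction counts and 25 of 27 sham counts, and Vcam1 in macrophage-like cells, with 631 of 708 and 642 of 742. Monocyte-like cells held the largest share of Icam1, 1119 of 2674 counts in distraction and 946 of 2157 in sham. Fut7 was a gene of the neutrophil lineage, with 563 of 612 and 581 of 649 counts in granulocyte progenitor-like cells and the neutrophil stages. Spn was spread over progenitors, early neutrophils, early erythroid cells and B-like cells, and Selp over endothelial, megakaryocyte-like, monocyte-like and neutrophil-like cells. Summed over all kept cells the libraries were close in most members: Spn was at 205 CPM in distraction and 155 in sham, Icam1 at 85.8 and 73.2, Vcam1 at 22.7 and 25.2, Fut7 at 19.6 and 22.0, and Selp at 14.99 and 12.2. Sele differed more, at 2.73 CPM (2.18 to 3.37) against 0.916 (0.604 to 1.33), and these sums also move with how many endothelial cells a library holds.

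**Figure D1:**
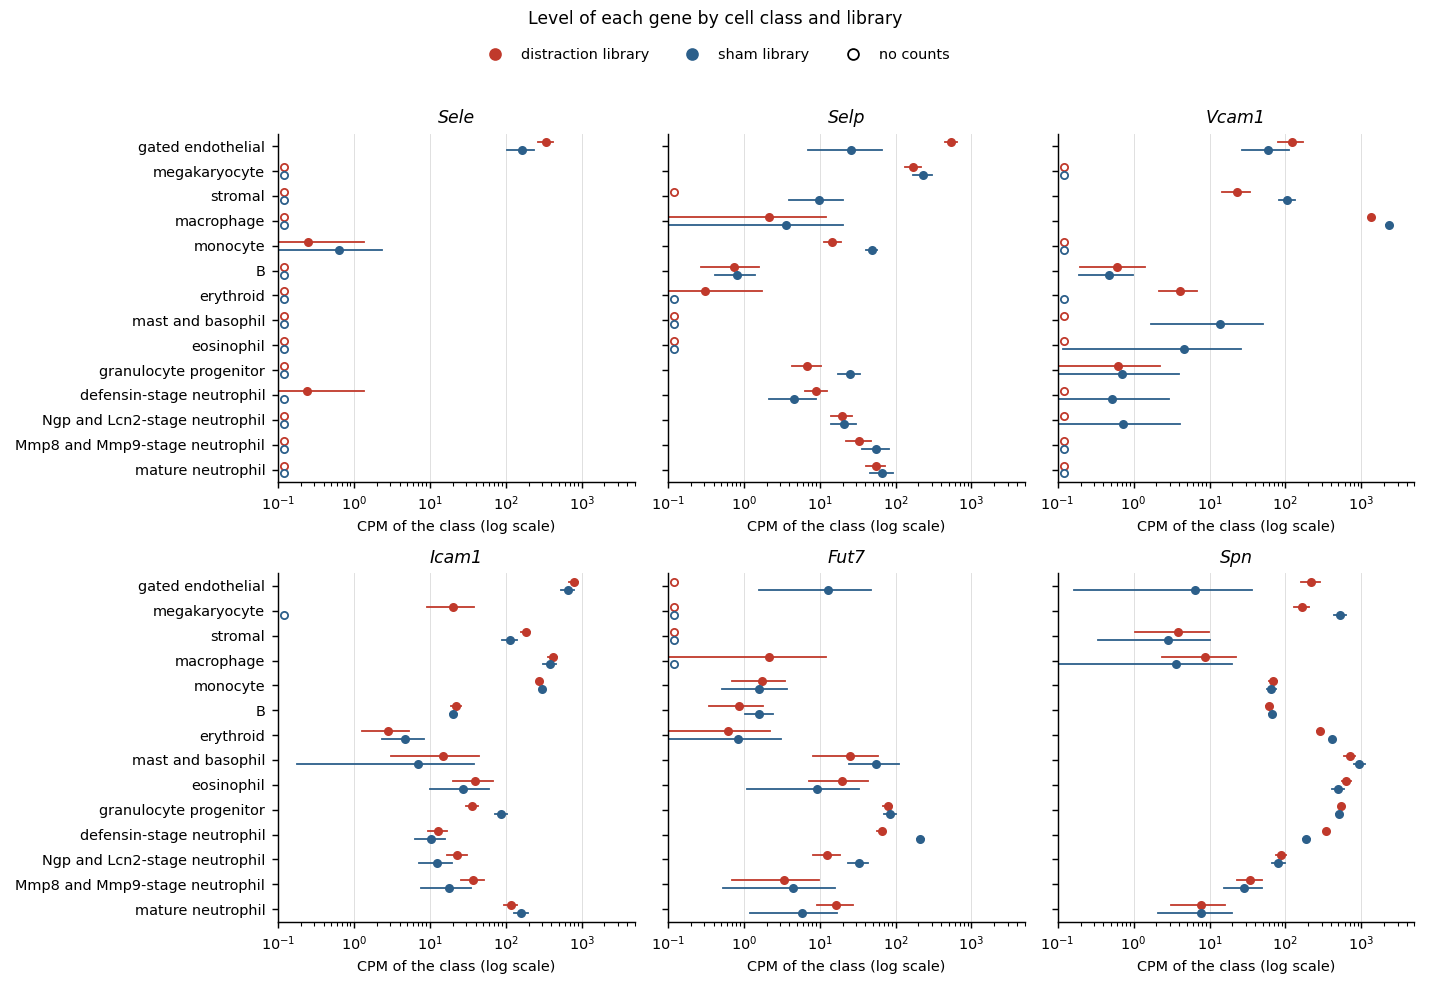
Level of each of the 6 genes (horizontal axis, CPM of the class, log scale) in 14 cell classes (vertical axis) in the distraction (red) and sham (blue) library, with exact 95% intervals for counting error as lines and open circles at the left edge where there were no counts. Sele stands out in gated endothelial cells, Vcam1 in macrophage-like cells at 1358 and 2309.6 CPM, and Spn falls step by step down the neutrophil stages.

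In gated endothelial cells the distraction library held more Sele, Selp and Vcam1 in CPM than the sham library, and Icam1 was within 1.5-fold with this gate. Of the 6 members, 5 had at least 10 counts there. At a fold of 2 or more, 4 of these 5 were higher in distraction and none was lower, against 12.1% of the 2152 genes with at least 30 counts that were 2-fold apart in either direction, and 21.6% of those with at least 10 counts. The last of these, Spn, came from cells that also held Ptprc, as described below.

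Among the 4 endothelial members the ratio was largest for Selp. It had 129 counts in 12 of 27 distraction cells (535 CPM, 447 to 636) and 4 counts in 2 of 19 sham cells (25.9 CPM, 7.06 to 66.4), a ratio of 20.6 (7.87 to 76.9). The distraction counts were uneven: the highest cells held 59, 34 and 10 counts, the top pair of them 72.1% of all. The sham counts were 3 and 1, and the cell with 3 also held 3 counts of Ptprc. With every gated cell thinned to 2000 UMIs, which leaves out shallower cells, 37.5% of distraction and 11.1% of sham cells held Selp, against 0.155% and 0.278% of B-like cells, which should lack it. Of the 129 counts 9 were in cells with a megakaryocyte marker, but the gate keeps only cells with fewer than 2 of these markers. Summed over the gated cells, the 10 megakaryocyte markers were higher in distraction, as Selp was, at 199 against 45.4 CPM, and their part in the Selp ratio was not tested. Vwf, the von Willebrand factor gene whose product shares storage granules with P-selectin, had 94 counts in 7 distraction cells and 5 counts in 2 sham cells, and Selp and Vwf occurred together in 5 and 1 cells.

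Sele had 81 counts in 11 of 27 distraction cells (336 CPM, 267 to 418) and 25 counts in 4 of 19 sham cells (162 CPM, 105 to 239), a ratio of 2.07 (1.31 to 3.39). Again few cells carried most of it: the top cells held 34, 14 and 14 counts in distraction and 17, 5 and 2 in sham, so 1 sham cell held 68.0% of the sham counts. Without the highest cell of each library the ratio was 4.25 (1.99 to 10.4). After thinning, 25% of distraction and 11.1% of sham cells held Sele. No other class had more than 2 counts, so Sele was near 0 in all blood cells of both libraries: among 1588 and 3400 B-like cells there were none, where the exact 95% upper limit is 0.232% and 0.108% of cells with a UMI.

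Vcam1 had 29 counts in 9 gated distraction cells (120 CPM, 80.6 to 173) and 9 counts in 3 sham cells (58.3 CPM, 26.7 to 111). The ratio of 2.06 had an interval of 0.950 to 4.95 that included 1, and 15 of the 29 distraction counts came from 1 cell. Icam1 was the most widely held, with 189 counts in 18 distraction cells (784 CPM, 676 to 904) and 101 counts in 15 sham cells (655 CPM, 533 to 795), a ratio of 1.20 (0.936 to 1.54). After thinning, 62.5% and 50% of cells held it. The 4 genes overlapped in part, by counts not thinned to equal depth. Sele and Selp occurred together in 6 distraction and 2 sham cells, and Icam1 was in 10 of 11 and 3 of 4 cells with Sele. All 4 genes occurred in 1 and 2 cells, and none of them in 5 and 3 cells. The part of cell depth in these counts was not tested.

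**Figure D2:**
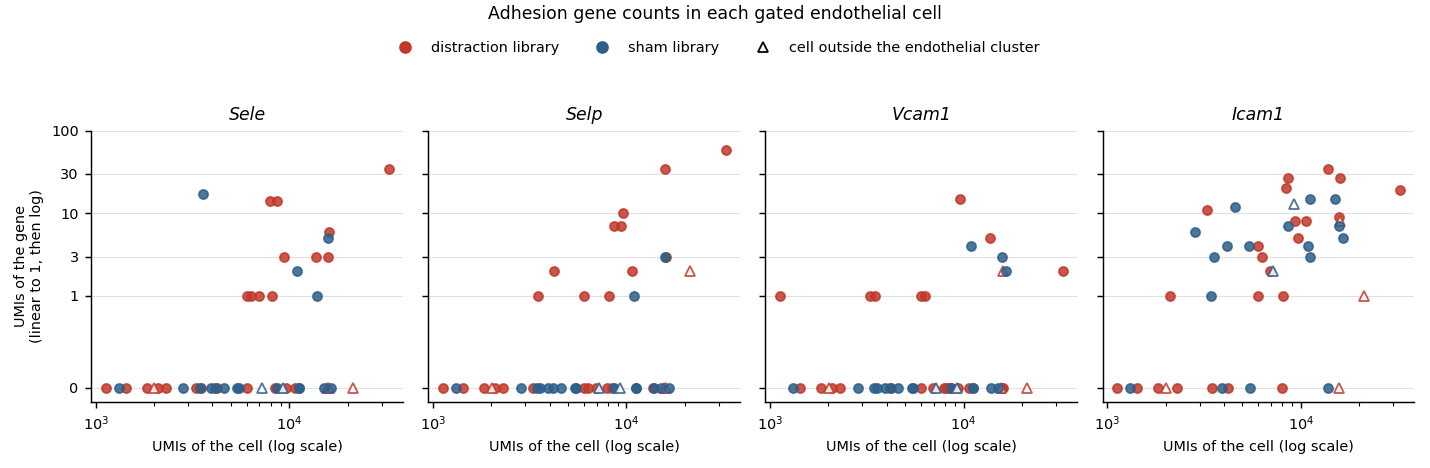
Counts of Sele, Selp, Vcam1 and Icam1 (vertical axis, UMIs of the gene, linear to 1 and then log) in each gated endothelial cell against the cell's total UMIs (horizontal axis, log scale), distraction in red and sham in blue, with open triangles for gated cells outside the endothelial cluster. Most Selp counts sit in a few red cells, with 59 and 34 in the top pair, while Icam1 is spread over 18 red and 15 blue cells.

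These counts rest on the choice of cells. In the endothelial cluster alone (23 and 17 cells), Sele was at 435 against 181 CPM, Selp at 682 against 29.0, Vcam1 at 145 against 65.3 and Icam1 at 967 against 624. The ratio there was 1.55 (1.19 to 2.03) for Icam1 and 2.22 (1.01 to 5.37) for Vcam1. With at least 6 markers (24 and 18 cells) it was 1.38 (1.08 to 1.78) for Icam1, 2.35 (1.08 to 5.63) for Vcam1 and 2.36 (1.49 to 3.86) for Sele. With at least 3 markers (43 and 27 cells) the log2 ratio was 4.27 for Selp but 0.92 for Sele and 0.91 for Vcam1, short of 2-fold. The Icam1 ratio was 1.03 (0.820 to 1.29). With that gate 3 members were past 2-fold: Selp and Fut7 (10 against 2 counts) were higher in distraction, and Spn was lower, with 132 counts (239 CPM) against 171 (532 CPM), a ratio of 0.450 (0.356 to 0.569). When cells with Ptprc or with 3 or more neutrophil markers were left out, 8 and 9 cells remained and 0 members passed: Sele was at 459 and 315 CPM, and Selp, at 229 and 0 CPM, had fewer than 10 counts. Icam1 had a ratio of 1.27 (0.784 to 2.03) in these cells. Markers of other cells moved with the libraries in the gated cells: the 10 macrophage markers summed to 7918 CPM in distraction and 3532 in sham (4 and 5 with counts). Of these sums 7835 and 3493 CPM were from the haem oxygenase gene Hmox1, which other cells also express. Of the rest, Cd5l had 16 and 3 counts (66.4 and 19.4 CPM) and Mrc1 3 and 1. C1qb, C1qc and Adgre1 had at most 1 count in a library, and C1qa, Cd163, Vsig4 and Marco were at 0. The 8 defensin-stage markers summed to 581 and 2385 CPM (5 and 7 with counts) and the 11 erythroid markers to 290 and 90.7, of which the transferrin receptor gene Tfrc gave 224 and 90.7. The 13 neutrophil markers summed to 1149 and 1782 CPM (10 of 13 with counts in each), the 9 B-cell markers to 66.4 and 349.9, the 11 mural markers to 149 and 292, and the megakaryocyte sum named above held 47 and 7 counts of Pf4. Their part in the ratios was not tested.

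Fut7 and Spn, the leukocyte members, were at 0 in the endothelial cluster of both libraries, where 0 of 23 and 0 of 17 cells have an exact 95% upper limit of 14.8% and 19.5% of cells with a UMI. The 52 distraction and 1 sham counts of Spn in the gate were in 2 and 1 cells of the protease-led cluster, which held 15 and 4 counts of Ptprc between them, and the ratio of 33.3 (5.72 to 1339.5) describes those cells.

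Vcam1 and Icam1 are textbook targets of NF-κB, and the stretch just before their transcription starts is shown because it is where such sites are looked for. The 150 bases up to each start, from RefSeq on rat build GRCr8, are given 5′ to 3′ on the gene's strand, with matches in capitals. GRCr8 is not the Rnor_6.0 build of the counts, and 4 of the 6 genes (not Selp and Spn) were in the promoter table.
Vcam1, chr2:206742784-206742933, minus strand: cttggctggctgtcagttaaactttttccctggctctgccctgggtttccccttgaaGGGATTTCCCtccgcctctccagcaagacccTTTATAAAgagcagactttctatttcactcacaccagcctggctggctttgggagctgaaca
Icam1, chr8:27829695-27829844, plus strand: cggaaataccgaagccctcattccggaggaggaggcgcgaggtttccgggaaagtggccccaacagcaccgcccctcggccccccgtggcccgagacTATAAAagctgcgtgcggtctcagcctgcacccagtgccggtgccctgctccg
In Vcam1 the capitals mark a match to the κB consensus, GGGATTTCCC, which reads as a match on both strands, 93 to 84 bases before the start, and TATAAA 60 to 55 bases before it, with an overlapping match on the other strand. Icam1 has TATAAA at 53 to 48 bases and no match to the κB consensus as searched in this window. Neither motif matched in the same window of Sele or Fut7. With both strands searched, 3.82% of 33469 promoter windows of this length held the κB consensus (1277 windows) and 8.0% held TATAAA (2678). A match is a run of letters and not a measured site, and the lack of a match does not show that a gene has no site.

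Other endothelial adhesion genes, from lists drawn up with the members, were mostly within 2-fold in the gated cells. Among those with at least 30 counts, 4 were past 2-fold, a larger share than the 12.1% of all 2152 genes. That share rests on few cells, since only 1 gene stayed past 2-fold without the highest cells, as given below. On the selectin ligand side, 3 of 19 listed genes had at least 30 counts, and 2 of them were lower in distraction: Podxl, a mucin of endothelium that can bind selectins when suitably sulphated, at 216 against 486 CPM, and Cd24 at 45.6 against 214. Of 13 further adhesion genes 4 had enough counts and 1 was lower, the junction gene F11r at 87.1 against 175 CPM. The integrin-side list had 3 of 11 genes with enough counts and none past 2-fold, with Itgb1 at 1178 and 1309 CPM. Among 11 genes of cytokine receptors, NF-κB and interferon signalling 7 had enough counts and 1 was higher, Nfkb1, at 431 against 201 CPM, while the NF-κB inhibitor gene Nfkbia stood at 6728 and 8003 and Irf1 at 456 and 687. The list medians on the log2 ratio scale were -1.17, -0.32, -0.15 and -0.27 in the order given, beside -0.03 over all 2152 genes. Without the cell with the most counts of each gene in each library, 1 listed gene in place of 4 was past 2-fold, and it was lower. Icam2, another ligand of the Itgal integrin, had 11 and 7 counts (45.6 and 45.4 CPM).

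The largest pool of Vcam1 RNA lay in macrophage-like cells. It had 631 counts in 25 of 30 distraction cells (1358 CPM, 1254 to 1468) and 642 counts in 21 of 26 sham cells (2309.6 CPM, 2134 to 2495), a ratio of 0.588 (0.526 to 0.657) that did not reach 2-fold. After thinning, 76.0% and 70.0% of these cells held it, so the gene was common among them in both libraries, and the highest cell held 13.9% and 17.0% of the counts. Of the members, 2 had at least 10 counts here and 0 passed 2-fold, beside 11.6% of 2893 genes with at least 30 counts and 19.7% of those with at least 10. The cells carried the complement genes C1qa (3804 and 3605 CPM), C1qb and C1qc and the haemoglobin scavenger receptor gene Cd163 (589.6 and 550.4). All 11 erythroid markers were also present, summing to 4172 CPM in distraction and 7001 in sham, with the globin gene Hbb at 7789 and 7864. Macrophages that carry VCAM-1 and hold erythroblasts at their surface are known from marrow, and whether erythroid RNA here came from attached or engulfed cells was not tested. The endothelial markers summed to 73.2 and 86.3 CPM, with Cdh5, Kdr and Flt1 at 0.

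In erythroid-like cells, which carry the other partner, Itga4 stood at 17.1 and 17.8 CPM and Itgb1 at 229.8 and 269.9. Vcam1 itself was nearly absent there, with 13 counts in 4 of 426 distraction cells, 10 of them in 1 cell, and 0 counts in 331 sham cells. Without that cell 3 counts remained in distraction, so no ratio is given.

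Stromal-like cells, a cluster led by the collagen genes Col1a1 and Col3a1, held a smaller amount of Vcam1. There were 24 counts in 12 of 86 distraction cells (23.1 CPM, 14.8 to 34.4) and 75 counts in 7 of 58 sham cells (105 CPM, 82.9 to 132), a ratio of 0.219 (0.132 to 0.351). The sham value rests on few cells: 64 of its 75 counts were in 3 cells with at least 3 of 5 marrow stroma markers, and no distraction cell had 3 of these. The class also differed in makeup: the 8 osteoblast markers summed to 9262 CPM in distraction and 30086 in sham, the 8 fibroblast markers to 29532 and 11378, and the 10 megakaryocyte markers to 20.2 and 1015. Of the Vcam1 counts 3 of 24 in distraction and 72 of 75 in sham were in cells with at least 3 osteoblast markers, which were 25 of 86 and 33 of 58 cells, and the part of this makeup in the ratio was not tested. The marrow stroma markers summed to 92.4 CPM in distraction and 569 in sham, with Cxcl12 at 39.5 and 409. With only cells of at least 1500 UMIs kept, the log2 ratio turned from -2.19 to 0.66, and the cause was not tested. Icam1 in the same cells was at 184 CPM (159 to 212) in distraction and 112 (89.2 to 140) in sham, a ratio of 1.64 (1.25 to 2.15), while the 13 neutrophil markers summed to 4914 and 639.5 CPM and the 9 monocyte markers to 4978 and 1595. The part of those cells in the Icam1 difference was not tested. Of 2 members with at least 10 counts 1 was lower, beside 17.3% of 5330 genes with at least 30 counts past 2-fold and 23.3% of those with at least 10.

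Among the named blood classes Icam1 followed the mononuclear phagocytes. Macrophage-like cells had 413 CPM (357 to 476) in distraction and 381 (312 to 461) in sham, and monocyte-like cells 275 (259 to 292) and 303 (284 to 323). Next came mature neutrophil-like cells at 117 (95.4 to 141) and 160 (127 to 198), and B-like cells were low at 22.1 and 20.4. After thinning, 43.2% and 41.6% of monocyte-like cells held Icam1 against 0.258% and 0.348% of erythroid-like cells. The order gated endothelial, macrophage, monocyte, mature neutrophil was the same in both libraries. In distraction the intervals of neighbours in this order did not overlap, and in sham those of macrophage-like and monocyte-like cells did.

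Selp outside endothelium was highest in megakaryocyte-like cells, where platelets arise. It had 77 counts in 12 of 21 distraction cells (171 CPM, 135 to 213) and 48 counts in 6 of 14 sham cells (228 CPM, 168 to 303), 34 of them in 1 sham cell. The gated endothelial level was above this in distraction and below it in sham. Neutrophils held a low but clear amount that rose along the stages, from 9.01 CPM in the defensin stage to 19.7, 32.8 and 55.0 in the Ngp and Lcn2, the Mmp8 and Mmp9 and the mature stage in distraction, and 4.66, 21.1, 55.2 and 65.5 in sham. The mature stage was 8.01-fold (4.76 to 13.9) above the lowest, the progenitors, in distraction and 14.1-fold (6.61 to 33.3) above the lowest, the defensin stage, in sham. After thinning, 6.76% and 11.7% of mature neutrophil-like cells held Selp, above the 0.155% and 0.278% of B-like cells. Megakaryocyte markers were rare beside it: of 25 distraction and 25 sham mature neutrophil-like cells with Selp, 1 and 0 held a megakaryocyte marker.

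Monocyte-like cells differed between the libraries in Selp, with 60 counts in 31 of 252 distraction cells (14.7 CPM, 11.3 to 19.0) and 151 counts in 46 of 261 sham cells (48.4 CPM, 41.0 to 56.7), a ratio of 0.305 (0.222 to 0.414). In distraction 21 of the 60 counts were in cells with a megakaryocyte marker, which were 88 of the 252 cells, so the share of counts was close to the share of cells. In sham 88 of the 151 counts were in such cells, which were 88 of 261, a larger share of the counts than of the cells. The summed markers were 115 CPM in distraction and 88.7 in sham, and their part in the difference was not tested.

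Spn fell along the neutrophil lineage in both libraries. In distraction it stood at 532 CPM in granulocyte progenitor-like cells, 341 in the defensin stage, 88.6 in the Ngp and Lcn2 stage, 33.9 in the Mmp8 and Mmp9 stage and 7.69 in mature cells. In sham the same order read 504, 187, 80.7, 28.7 and 7.71 CPM. The progenitors were 69.1-fold (33.5 to 172) and 65.4-fold (25.4 to 241) above mature cells, and the intervals of neighbouring stages did not overlap in distraction. In sham only the last pair, at 15.3 to 49.1 and 2.10 to 19.7 CPM, overlapped. After thinning, the share of cells with Spn fell from 57.1% to 1.07% in distraction and from 51.1% to 1.24% in sham, so the order also held at equal depth.

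Fut7 also belonged to the early stages. In distraction it was at 78.6 CPM (69.2 to 88.9) in progenitors, 65.3 (57.7 to 73.6) in the defensin stage, 12.7 in the Ngp and Lcn2 stage, 3.39 in the Mmp8 and Mmp9 stage and 16.5 in mature cells. In sham the defensin stage came first at 212 CPM (192 to 234), then progenitors at 85.7 (71.1 to 102), and later stages at 32.7, 4.42 and 5.78. The highest stage was 23.2-fold (7.83 to 113) and 48.0-fold (13.2 to 398) above the Mmp8 and Mmp9 stage, which rests on 3 and 2 counts. The libraries differed at the defensin stage, where 268 counts in 82 of 274 distraction cells faced 410 counts in 73 of 181 sham cells, a ratio of 0.308 (0.263 to 0.360). It was 0.387 (0.227 to 0.644) at the Ngp and Lcn2 stage and 0.917 (interval from 0.736 to 1.149) in progenitors. After thinning, the defensin-stage shares were 10.7% and 20.1%. In the same cells Spn went the other way, 341 against 187 CPM, a ratio of 1.82 (1.62 to 2.05). Markers of the progenitor stage were 1320.2 and 1191 CPM in the defensin-stage cells and those of the mature stage 659 and 814.

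The integrin receptors for ICAM-1 followed the opposite course. Itgal was at 1.87 and 3.54 CPM in progenitors and rose 96.1-fold (43.2 to 266) and 41.8-fold (17.0 to 133) to its peak of 179.8 and 148 CPM in the Mmp8 and Mmp9 stage. Itgb2, its partner, rose 34.5-fold and 40.7-fold to 1667 and 1727 CPM at the same stage. Itgax was highest in mature cells at 751 and 815 CPM. Itgal and Itgb2 kept 1 order of the 5 stages in both libraries, with mature cells next to the peak. Itga4 was low at every stage, no higher than 6.55 and 6.37 CPM, and Itgam was not analysed here. Selplg, the gene of the main P-selectin ligand of leukocytes, had few counts, at most 13.6 CPM in any stage of the distraction library and 7.71 in sham. Whether the annotation behind the counts covers the end of this transcript could not be checked. These counts therefore do not show how much Selplg RNA the cells held.

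Enzymes that build the selectin-binding sugar did not share 1 course. Fut4, another fucosyltransferase gene, was highest in progenitors at 74.5 and 71.5 CPM and lowest in the Ngp and Lcn2 stage at 6.58 and 2.91. Gcnt1, which starts the branch that carries the sugar, was at 13.1 and 24.1 CPM in progenitors. It was lowest in the defensin stage, at 2.68 and 3.62 CPM, and stood at 133 and 90.5 in mature cells. St3gal4, a sialyltransferase gene, lay between 36.2 and 137 CPM over the stages in distraction and between 48.6 and 73.5 in sham.

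**Figure D3:**
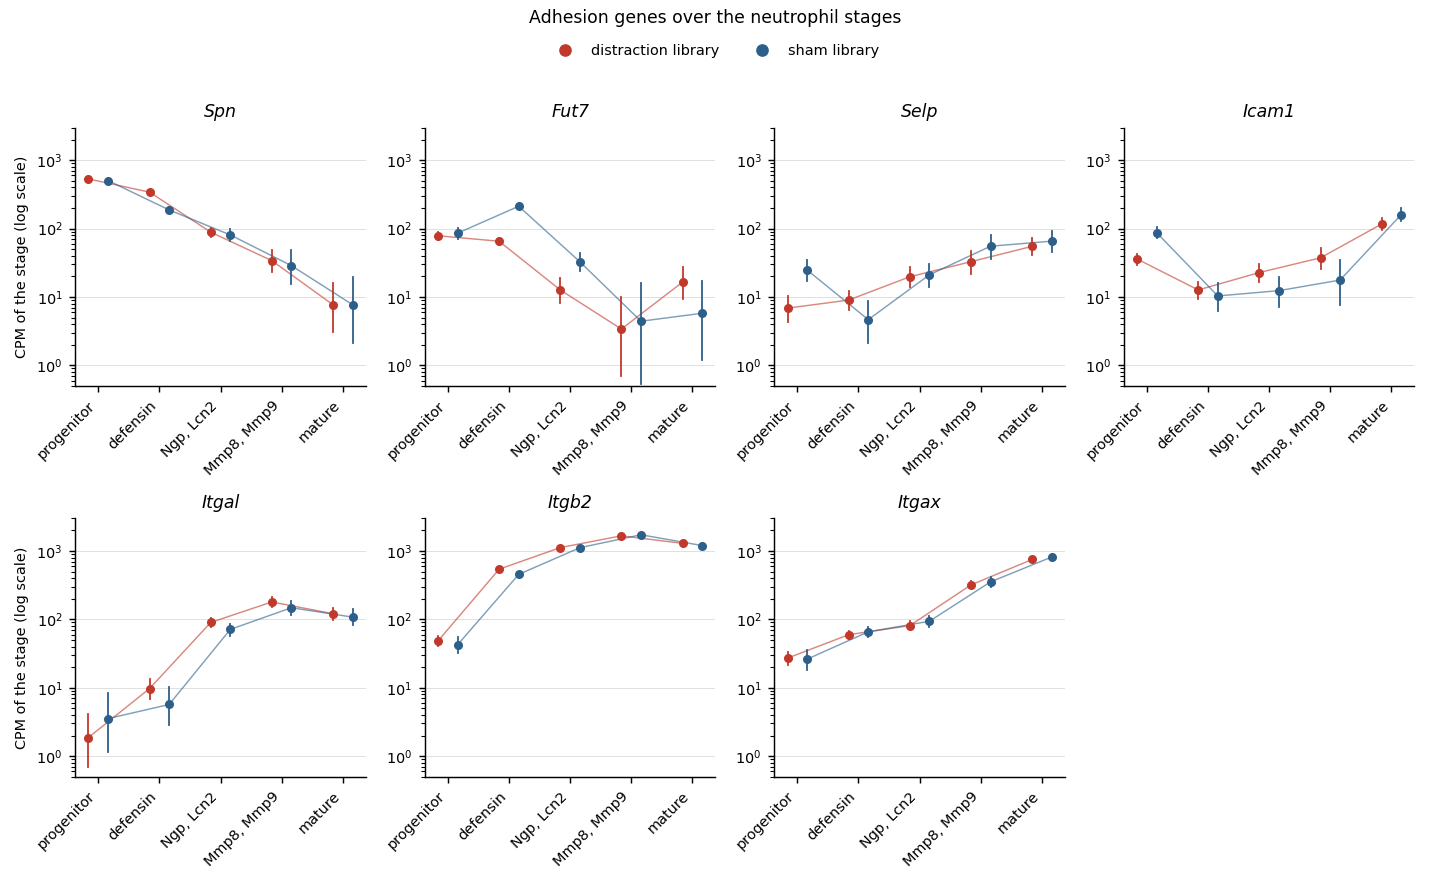
Level (vertical axis, CPM of the stage, log scale) of 7 adhesion genes over the 5 stages from granulocyte progenitor to mature neutrophil (horizontal axis), distraction in red and sham in blue, with exact 95% intervals for counting error; the lines join the stages of a library. Spn falls from 532 and 504 to 7.69 and 7.71 CPM while Itgal, Itgb2 and Itgax rise, and Fut7 peaks in the first pair of stages.

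Spn was high in other granulocytes and early cells too. Mast and basophil-like cells had 706 and 945 CPM, eosinophil-like cells 637 (551 to 734) and 497 (407 to 600), and megakaryocyte-like cells 164 (129 to 206) and 523 (430 to 631), 38 of the 110 sham counts of the latter in 1 cell. Eosinophil-like and mature neutrophil-like cells thus stood far apart, and how mature the eosinophil-like cells were was not tested. Spn was in 21 of 52 and 18 of 63 eosinophil-like cells, with 43 of 195 and 31 of 108 counts in 1 cell. Among erythroid-like cells the cluster led by Car1 had 519 and 779 CPM, against 14.3 and 10.6 in the cluster led by Hbb and Slc4a1. In B-like cells Spn was at 61.0 and 65.5 CPM as a whole, and within them at 167 and 181 in the cluster led by Igll1 and Cd24 and at 14.9 and 9.73 in the cluster led by class II genes. Stromal-like cells, at 3.85 and 2.81 CPM, give the level of cells that should lack it.

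Over the 11 other classes with at least 20 cells in each library, 37 of 66 pairs of a gene and a class had at least 10 counts, and 9 of them were 2-fold apart, 3 higher and 6 lower in distraction. The shares given beside the members below are of genes with at least 30 counts. For genes with at least 10 counts, as for members, the shares were larger. They were 5.99% in B-like, 6.55% in monocyte-like, 8.96% in erythroid-like and 16.9% in eosinophil-like cells. In granulocyte progenitor-like cells the share was 8.53%, and from the defensin to the mature stage it was 10.3%, 12.4%, 12.8% and 16.3%. In B-like cells, the most deeply counted class, 0 of 5 members passed, beside 1.98% of all genes tested there. In the defensin stage 1 of 4 passed, Fut7, beside 4.4%, and in the Ngp and Lcn2 stage 1 of 4, again Fut7, beside 4.61%. The Mmp8 and Mmp9 stage had 1 of 3, Icam1, higher at 37.3 against 17.7 CPM with a ratio interval of 0.957 to 5.29 that included 1, beside 4.47%. Mature neutrophil-like cells had 1 of 4, Fut7, on 15 and 3 counts with a ratio of 2.85 (0.807 to 15.4), beside 6.23%. Monocyte-like cells had 1 of 4, Selp, beside 2.14%, and eosinophil-like cells 0 of 2, beside 6.88%. Erythroid-like cells had 1 of 3, Vcam1, beside 3.59%. It passed only as a bound against the floor, on 13 counts against 0, with 10 of the 13 in 1 cell. Granulocyte progenitor-like cells had 2 of 4, both lower, beside 3.97%: Selp at 6.86 against 24.8 CPM, a ratio of 0.277 (0.155 to 0.485), and Icam1 at 35.9 against 87.1, a ratio of 0.412 (0.317 to 0.535). In these progenitors the 9 mature neutrophil markers summed to 312 CPM in distraction and 794 in sham, and the 9 monocyte markers to 4194 and 6991. The 13 neutrophil markers ran the other way, at 4837 and 2570 CPM, and so did the 8 defensin-stage markers, at 94237 and 55605. The part of these cells and stages in both ratios was not tested. Finer clustering brought the Icam1 log2 ratio from -1.28 to -0.49.

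**Figure D4:**
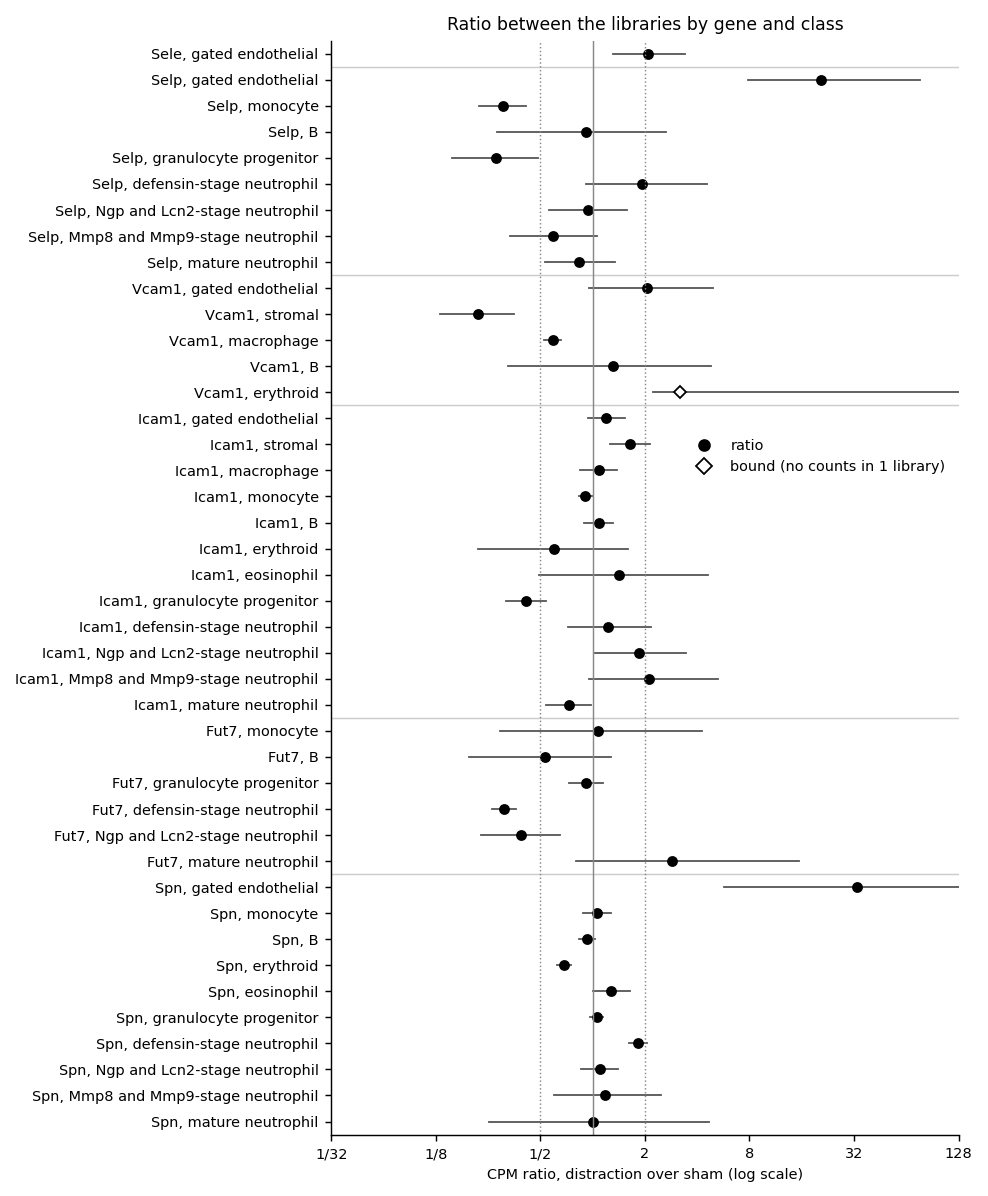
Ratio of CPM, distraction over sham (horizontal axis, log scale), for each gene and class with at least 10 counts (vertical axis, grouped by gene), with exact 95% intervals for counting error that are clipped at the axis limits; dotted lines mark 2-fold. Selp runs from 20.6 in gated endothelial cells to 0.277 in granulocyte progenitors, while most Icam1 and Spn ratios lie within 2-fold.

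Across the leukocyte classes the wider adhesion lists were mostly within 2-fold. In monocyte-like cells 1 of 12 selectin-ligand genes and 0 of 8 integrin-side genes with enough counts passed, and in mature neutrophil-like cells 1 of 9 and 0 of 6, the 1 being Cd24 in both. Cd24 codes for a small sialylated anchor protein and was strongest in B-like and eosinophil-like cells, and it was past 2-fold lower in distraction in 9 of the 12 classes compared, gated endothelial cells included, from 18.3 against 146 CPM in the defensin stage to 13.3 against 30.4 in monocyte-like cells. The B-cell markers moved with it, for example 37.0 against 186 CPM in the defensin stage and 25.8 against 79.8 in monocyte-like cells, and their part was not tested. In B-like cells Cd24 itself was at 2689.8 and 2692 CPM. The integrin gene Itgb7 was higher at the Ngp and Lcn2 stage, on 32 and 4 counts (16.2 and 2.91 CPM), and in B-like cells, on 32 and 26 counts (3.92 and 1.75 CPM).

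Genes whose levels ran most like each member were found by the Pearson correlation of log2(CPM + 10) over 22 values, 11 classes in each of 2 libraries without the gated endothelial cells (19 sham cells, under the minimum of 20), as a description of shared pattern alone. Classes of 1 library share its depth and its free RNA. Fut7 ran closest to the defensin genes RatNP-3b (0.93), Np4 (0.93) and Defa5 (0.93), which are markers of the stage. Icam1 ran with the chemokine genes Cxcl1 (0.95), Ccl2 (0.92) and Cxcl3 (0.92), Vcam1 with Esam (0.99), Heph (0.98) and Slc1a3 (0.98), Selp with Klrb1a (0.91) and Rnf144b (0.90), and Spn with Ptpn7 (0.88), Cdkn2aipnl (0.87) and Zdhhc3 (0.87). Sele had too few counts in these classes for such a measure.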

How the data were processed

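RNA of single cells was captured on the BD Rhapsody platform in 1 distraction and 1 sham library. The deposited tables hold counts of molecules (UMIs), whole numbers for every cell and gene that the authors did not scale. They came from the BD WTA Rhapsody Analysis Pipeline 1.5.1, per the file headers. The submitters' processing notes also list Rnor_6.0 and Seurat 3.6, without a role. Neither the annotation release nor the cell-calling rule is given in the sources used here.

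Cells with at least 500 UMIs, 200 genes and under 25% mitochondrial UMIs were kept (4037 and 5183). Scrublet in scanpy 1.11.5, with 5% doublets expected, marked 5 and 1 of them, 0.0651%, which is too few for a caller that worked, so doublets must be assumed to remain. The marked cells were removed. Counts were scaled to 10000 per cell and logged. Both libraries were clustered together, with 2000 variable genes without the adhesion lists, 30 components, 15 neighbours and Leiden resolution 1 (leidenalg 0.10.2, seed 1), into 28 clusters. A cluster was named when at least 3 fixed markers were in 10% of its cells at 2 times the median cluster and made up at least 0.5 of a list. Clusters that tied or were led by another type's genes stayed unnamed (5.28% of distraction and 3.09% of sham cells).

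Raw counts were summed per class and library and given as CPM of the class with exact Poisson intervals. Ratios carry exact intervals of the conditional binomial, and shares of cells exact binomial ones, at 95%, all for counting error only. Shares were also taken after thinning each cell to 2000 UMIs. A ratio counted as past 2-fold from 10 counts over both libraries for a member and from 30 for other genes. A fold against 0 uses a floor of 3 counts. Ratios and their intervals were tried on simulated Poisson counts with planted fold changes, which lack the unevenness between cells of the real counts. All 6 members are named. Beside them stand up to 3 genes most like each, the genes of each adhesion list with the largest ratios (up to 4 per class), Selplg, Itgal, Itgb2, Itga4 and Icam2. Vwf, Itgax and the sugar enzyme genes were picked with their values already in view. Some genes that this rule names are not reported here. The members and the lists were chosen with earlier results of these data known. No member overlaps another gene on GRCr8.

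Alternatives were every deposited cell, at least 1500 UMIs, Leiden resolution 2, called doublets kept, the median gene ratio as scaling, a fold of 1.5, no minimum count, leaving out the highest cell, 4 other endothelial gates and thinning to 1000 UMIs.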

Additional observations from a re-analysis of the deposited data

Results flagged for a closer look

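These values stand out because the ratio between the libraries ran one way in a class and the other way in another class of the same gene. With 1 library per group, the difference between the classes was not tested.

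Selp was higher in distraction in gated endothelial cells, with a log2 ratio of distraction over sham of 4.37, and lower in granulocyte progenitor-like cells, at -1.85, and in monocyte-like cells, at -1.71. Spn had a log2 ratio of 5.06 in gated endothelial cells, all of it in 3 cells that also held Ptprc, and of -1.67 in megakaryocyte-like cells, which are 21 in distraction and 14 in sham.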

How the results depend on the processing

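In gated endothelial cells 4 members were past 2-fold, all higher in distraction. The count was 3 or 4 under the other settings except without cells that held Ptprc or 3 neutrophil markers, where it was 0 on 8 and 9 cells, fewer than the 27 and 19 of the gate. With at least 3 endothelial markers 2 of the 3 were higher (Selp and Fut7), and Spn turned from a log2 ratio of 5.06 to -1.15. The 9 pairs of a gene and another class past 2-fold became 17 at 1.5-fold and 18 with no minimum count, 7 of each of these higher. They were between 9 and 11 otherwise, 5 of 11 higher with the median gene ratio as scaling. The 4 listed adhesion genes past 2-fold in gated cells became 16 with no minimum count and 1 without the highest cell of each gene. The log2 fold of Spn, progenitors over mature neutrophils, was 6.11 in distraction and 4.94 with called doublets kept. Vcam1 in stromal-like cells turned to a log2 ratio of 0.66 with at least 1500 UMIs. The cause of these shifts was not tested. Of the further values under a setting, 211 moved by less than their interval, 54 by more, and 2, the Spn and Vcam1 ratios named here, turned. Depth limits the endothelial values, since Vcam1 rests on 29 and 9 counts and Selp on 129 and 4. No paired analysis was possible because each group has 1 library and no test was made.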

Other observations

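Several unnamed clusters held members at high levels. A cluster of 30 cells led by Bcl2a1, Ccl4, Ccrl2 and Il1b, with 23 distraction and 7 sham cells, had Icam1 at 1784 CPM (135 counts in 21 cells) in distraction and 2536 (48 counts in 7 cells) in sham. A cluster of 125 cells led by MHC class II genes had Icam1 at 214 and 330.0 CPM and Spn at 367 and 386. A cluster of 171 cells led by the protease genes Mcpt1l4 and Mcpt8 had Spn at 553 and 629 CPM and Fut7 at 15.8 and 21.0.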
